A study of Mus musculus with 18 samples.

Results

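The genes described here are 41 listed genes of the lysosome: its membrane proteins, its proteases, its sugar, sulfate and lipid enzymes, the growth factor precursor Grn, the transcription factor Tfeb and subunits of the proton pump. They were chosen by name with earlier results of these data known, so their shares against all genes are descriptions. A gene counted as measured where at least 1 probe was annotated to it alone. Of the 41 listed genes 40 were measured, among 22180 genes in all. Glb1, the beta-galactosidase, was left out of every count because its probe is shared with Tmppe.

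The arrays were hybridised with RNA of phagocytes sorted from the small intestine of mice of the VDTR strain, male and female, of ages not given in the sources used here. In such mice, as background, the villin promoter drives a fusion of the toxin's receptor and green fluorescent protein (GFP) in the intestinal epithelium, so that GFP in a phagocyte marks material taken from epithelial cells. All groups had the same treatment, diphtheria toxin at 2 ng/kg into the peritoneum 4 hours before death, and there was no group without toxin. Sorted cells were live and carried CD45, CD11c and MHCII. Each of the 3 populations was divided by GFP, which gave 6 groups of 3 arrays: dendritic cells (DCs, CD103+ CD24+), macrophages with CD103 (CD103+ CD11b+ CD64+) and macrophages without a CD103 gate (CD11b+ CD64+), called CD103 and CD11b macrophages below. The labels do not say that replicates came from separate mice, so every p-value reflects only how far these samples spread, which may be technical.

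A lysosome is an acidic compartment in which phagocytes digest what they have engulfed. The proton pump (V-ATPase) acidifies its lumen, soluble hydrolases cut proteins, sugars and lipids there, and heavily glycosylated membrane proteins line it. TFEB and its relatives bind E-boxes of the CLEAR type in the promoters of many of these genes and switch them on. Macrophages are known for rapid digestion, while DCs are known for slower proteolysis that spares peptides for presentation to T cells.

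Each log2 value is given relative to the median of its probe over the 18 arrays, so 0 is the middle array of that probe. A difference of 1 is a doubling if the base is 2, which was inferred from the values. Neither an absolute level nor detection can be read from them, and no gene's level was set against another's. In sorted bulk RNA, fewer cells of a type and less RNA per cell cannot be told apart. By their markers DCs and macrophages were apart. All 12 measured macrophage markers were lower in DCs, with a median log2 difference of -4.95, and 9 of 12 measured DC markers were higher. Both lists hold genes of the sort itself. Itgae, which encodes CD103, differed by 1.19 ± 0.46 between the CD103 and the CD11b macrophages and did not pass (limma adjusted p = 0.79). The mean of 11 T and innate lymphocyte markers ran from 1.38 to 2.84 on the GFP-minus CD103 macrophage arrays. On the GFP-plus ones it ran from -0.06 to 0.58. On the CD11b macrophage arrays it ran from -0.20 to -0.09 without and from -0.32 to -0.11 with GFP. Array weights, an estimate of each array's reliability, ran from 0.352 to 2.52, and the 4 lowest belonged to CD103 macrophages (GFP-plus replicate 1, GFP-minus replicate 2), DCs (GFP-plus replicate 1) and CD11b macrophages (GFP-minus replicate 1). No correlation between 2 arrays was above 0.715.

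Promoter windows from RefSeq (GRCm38.p6), 250 bases before to 50 after the gene start, were found for 36 of the 41 genes. They are shown because TFEB and its relatives are known to bind CLEAR elements in the promoters of many lysosomal genes. The E-box CACGTG, which reads the same on both strands, was present in the windows of 12 of 36 genes (33.3%), against 8.09% of 27025 genes with a window. Its longer form TCACGTGA, which contains it and also reads the same on both strands, was present in 6 of 36 (16.7%), against 1.13% of all genes with a window. The longer CLEAR palindrome, with a G before and a C after that form, was in none of the 36 windows and in 0.37% of all. The stretches below run 5′ to 3′ on the gene's strand, with TCACGTGA or, where only the core is present, CACGTG in capitals. Lamp1 lies at chr8:13159088-13159160 on the plus strand, Mcoln1 at chr8:3500436-3500492 (plus), Ctsa at chr2:164833748-164833784 (plus), Ctsd at chr7:142387907-142388077 (minus), Gla at chrX:134601181-134601245 (minus), Atp6v1a at chr16:44139372-44139403 (minus) and Atp6v0d1 at chr8:105566061-105566080 (minus).
Lamp1: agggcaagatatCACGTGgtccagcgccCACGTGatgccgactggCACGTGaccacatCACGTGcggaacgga
Mcoln1: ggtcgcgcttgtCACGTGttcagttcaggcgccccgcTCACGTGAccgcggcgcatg
Ctsa: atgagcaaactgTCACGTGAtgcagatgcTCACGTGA
Ctsd: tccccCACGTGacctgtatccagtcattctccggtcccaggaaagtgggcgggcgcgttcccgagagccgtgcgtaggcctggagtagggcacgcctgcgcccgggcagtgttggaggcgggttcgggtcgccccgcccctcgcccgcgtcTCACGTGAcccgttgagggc
Gla: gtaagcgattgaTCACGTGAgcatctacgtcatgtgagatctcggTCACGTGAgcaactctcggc
Atp6v1a: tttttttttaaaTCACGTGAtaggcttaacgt
Atp6v0d1: gccctactgcggTCACGTGA
Lamp1 had 4 copies of the core, Ctsa and Gla had 2 copies of the longer form, and Ctsd and Mcoln1 had 1 copy each of the core alone and the longer form. Ctsl, Gaa, Glb1, Lgmn and Naglu had 1 core. The windows of Cd63, Lipa and Tfeb held none of these letters. A match describes the sequence and is not a measured binding site.

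The lysosomal genes varied more between the 6 groups than most genes did. The range of a gene's 6 group means had a median of 1.87 on the log2 scale over the 40 members and 0.51 over all genes, and it was 1 or more in 33 members (82.5%) against 29.1% of all genes. An F-test over the 6 groups (limma, adjusted p under 0.05 by Benjamini-Hochberg over 22180 genes) passed in 27 of 40 members, or 67.5%, against 7.92% of all genes. Ctsd, the aspartic protease cathepsin D, had the widest range of group means (5.43) and Ctsk, the collagen-cutting cathepsin K, the narrowest (0.14). The lowest group mean was that of GFP-plus DCs in 25 of 40 members and that of GFP-minus DCs in 7. The highest was that of GFP-plus CD11b macrophages in 25 members. These counts were not made over all genes, and the order of the DC gates depended on normalization, as given further on.

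**Figure D1:**
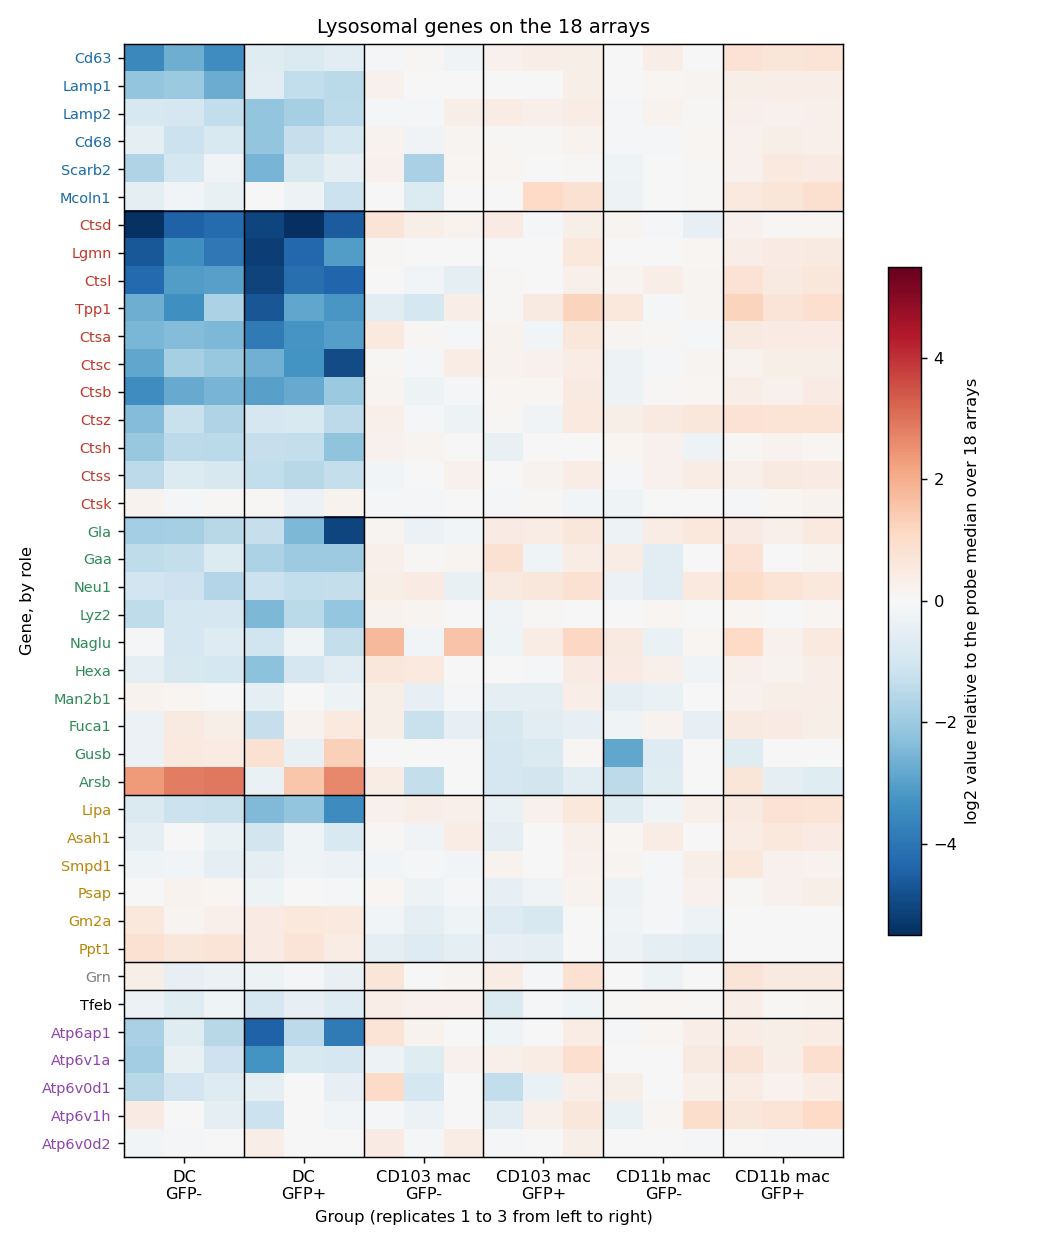
Log2 value of each of the 40 measured genes (rows, by role) on each of the 18 arrays (columns, by group), relative to the probe's median. Blue is below and red above that median. The 6 DC arrays form a blue block in most rows, deepest in Ctsd, where they run from -5.47 to -4.24. Ppt1 and Gm2a are red there, and so is Arsb except on GFP-plus replicate 1 (-0.34).

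Members also moved together from array to array. The mean Pearson correlation between 2 members over the 18 arrays was 0.37, against 0.01 between all genes, and it was 0.17 against 0.02 after group means were subtracted. All such pairs share arrays and amplification, so these are descriptions. Ctsb and Lgmn, cysteine proteases, had the highest correlation (0.989), followed by Ctsa and Ctsl (0.985). Ctsd and Ppt1, a lipid-cleaving thioesterase, had the lowest (-0.882).

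The comparison of DCs with macrophages, averaged over both GFP gates, asked how lysosomal genes differ between the phagocyte types. Of 40 members, 31 passed (77.5%), against 10.0% of all 22180 genes, 28 of them lower in DCs and 3 higher. The median log2 difference over the members was -1.35 and over all genes -0.03. Arrays of the DCs and of the macrophages did not overlap at all in 23 members (57.5%, against 2.82% of all genes), 21 of them lower in DCs.

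Proteases differed the most: 10 of 11 were lower in DCs, with a median difference of -3.09. Ctsd ran from -5.47 to -4.24 with a median of -4.81 over the 6 DC arrays, and from -0.44 to 0.69 with a median of 0.18 over the 12 macrophage arrays. The groups were far apart, and Ctsd was 32.7-fold lower in DCs (log2 difference -5.03 ± 0.18 SE, limma adjusted p = 5.3e-11). Lgmn, asparaginyl endopeptidase, which cuts after asparagine and activates cathepsins, ran from -5.17 to -3.08 in DCs and from -0.04 to 0.57 in macrophages, a 19.1-fold difference (-4.25 ± 0.25, limma adjusted p = 1.5e-08). Ctsl, a cysteine cathepsin, ran from -5.07 to -3.00 and from -0.51 to 0.79, an 18.1-fold difference (-4.18 ± 0.18, limma adjusted p = 5.55e-10). In all 3 genes every DC array lay below every macrophage array. Tpp1, a tripeptidyl peptidase (-3.44 ± 0.31), Ctsa, the protective protein that stabilises Neu1 and Glb1 (-3.15 ± 0.14; from -3.89 to -2.39 in DCs and from -0.15 to 0.62 in macrophages), and Ctsc, which activates granule serine proteases (-3.09 ± 0.26), followed. Ctsb, an abundant cysteine protease, was lower by a log2 difference of -2.88 ± 0.15. Smaller differences were found for the carboxypeptidase Ctsz (-1.75 ± 0.16), the aminopeptidase Ctsh (-1.67 ± 0.15) and Ctss (-1.42 ± 0.11), the cathepsin that trims the invariant chain of MHC class II. Ctsk did not pass, at 0.05 with an adjusted p of 0.846.

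Every membrane protein was lower in DCs, 6 of 6. Cd63, a tetraspanin of late endosomes, ran from -3.52 to -0.59 over the DC arrays (median -1.73) and from -0.19 to 0.80 over the macrophage arrays (median 0.29), and the difference was -2.22 ± 0.11 (limma adjusted p = 2.86e-09). The wide range in DCs follows the GFP gate, as given further on. Lamp1 and Lamp2, the main glycoproteins of the membrane, differed by -1.89 ± 0.14 and -1.62 ± 0.11, and Cd68, a macrophage-rich member of that family, by -1.26 ± 0.15. Scarb2, the receptor that carries glucocerebrosidase to the lysosome, differed by -1.11 ± 0.33 (limma adjusted p = 0.046). Mcoln1, a calcium channel, differed by -0.68 ± 0.19 (limma adjusted p = 0.038). The last 2 calls were the weakest of the 31: each was lost in 15 of 26 alternative settings, mostly on leaving out 1 array.

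Sugar and sulfate enzymes were split, with 6 of 10 lower in DCs and 1 higher. Gla, alpha-galactosidase A, was 6.07-fold lower (-2.60 ± 0.38), with GFP-plus DC replicate 3 lowest at -5.07 and the other DC arrays between -2.46 and -1.26. Gaa, which degrades glycogen, differed by -1.71 ± 0.19, the sialidase Neu1 by -1.63 ± 0.17 and lysozyme Lyz2 by -1.62 ± 0.12. Lyz1, a near-identical copy that probes for Lyz2 may also bind, differed by -2.34 ± 0.31 (limma adjusted p = 0.000104). The values of Lyz2 and Lyz1 are thus uncertain. Naglu and Hexa, which remove N-acetylated amino sugars, differed by -1.28 ± 0.30 and -1.27 ± 0.21. Arsb, which takes sulfate from dermatan sulfate, went the other way: it ran from -0.34 to 2.92 in DCs (median 2.48) and from -1.46 to 0.69 in macrophages (median -0.61). That is 5.56-fold higher in DCs (2.48 ± 0.39, limma adjusted p = 0.000576), with GFP-plus DC replicate 1 alone inside the macrophage range. Gusb (0.88 ± 0.36, limma adjusted p = 0.167), Fuca1 (0.20 ± 0.26) and Man2b1 (0.01) did not pass.

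Among the lipid enzymes and activators 3 of 6 were lower in DCs and 2 higher. Lipa, the acid lipase that frees cholesterol and fatty acids, ran from -3.48 to -0.79 in DCs (median -1.68) and from -0.65 to 0.80 in macrophages (median 0.27), a difference of -2.11 ± 0.20 (limma adjusted p = 2.61e-06). Asah1, acid ceramidase, and Smpd1, acid sphingomyelinase, differed by -0.65 ± 0.15 and -0.44 ± 0.09. Ppt1, which removes palmitate from proteins, was 1.93-fold higher in DCs, from 0.42 to 0.82 against -0.71 to 0.04 in macrophages (0.95 ± 0.09, limma adjusted p = 3.31e-06). Gm2a, the activator protein that presents GM2 ganglioside to hexosaminidase, was 1.61-fold higher (0.68 ± 0.11, limma adjusted p = 0.000906), from 0.17 to 0.59 against -0.88 to 0.03. In both of these genes no DC array overlapped a macrophage array. Psap, the precursor of the saposins, did not pass, at 0.01.

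The proton pump was lower in part: 2 of 5 subunits passed. Atp6ap1, an accessory subunit, ran from -4.44 to -0.68 in DCs and from -0.24 to 0.75 in macrophages (-2.51 ± 0.34, limma adjusted p = 0.000145). Atp6v1a, the catalytic subunit that splits ATP, differed by -1.70 ± 0.33 (limma adjusted p = 0.00296). Atp6v0d1, the common form of the d subunit, differed by -0.74 ± 0.27 (limma adjusted p = 0.116), Atp6v1h, a regulatory subunit, by -0.49 ± 0.24, and Atp6v0d2, the d form known from osteoclasts and macrophages, by -0.05. Tfeb itself was 1.51-fold lower in DCs (-0.59 ± 0.11, limma adjusted p = 0.00284), from -0.93 to -0.22 against -0.78 to 0.35. Grn, the precursor of the lysosomal granulins, was just short of the threshold (-0.49 ± 0.15, limma adjusted p = 0.0527).

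**Figure D2:**
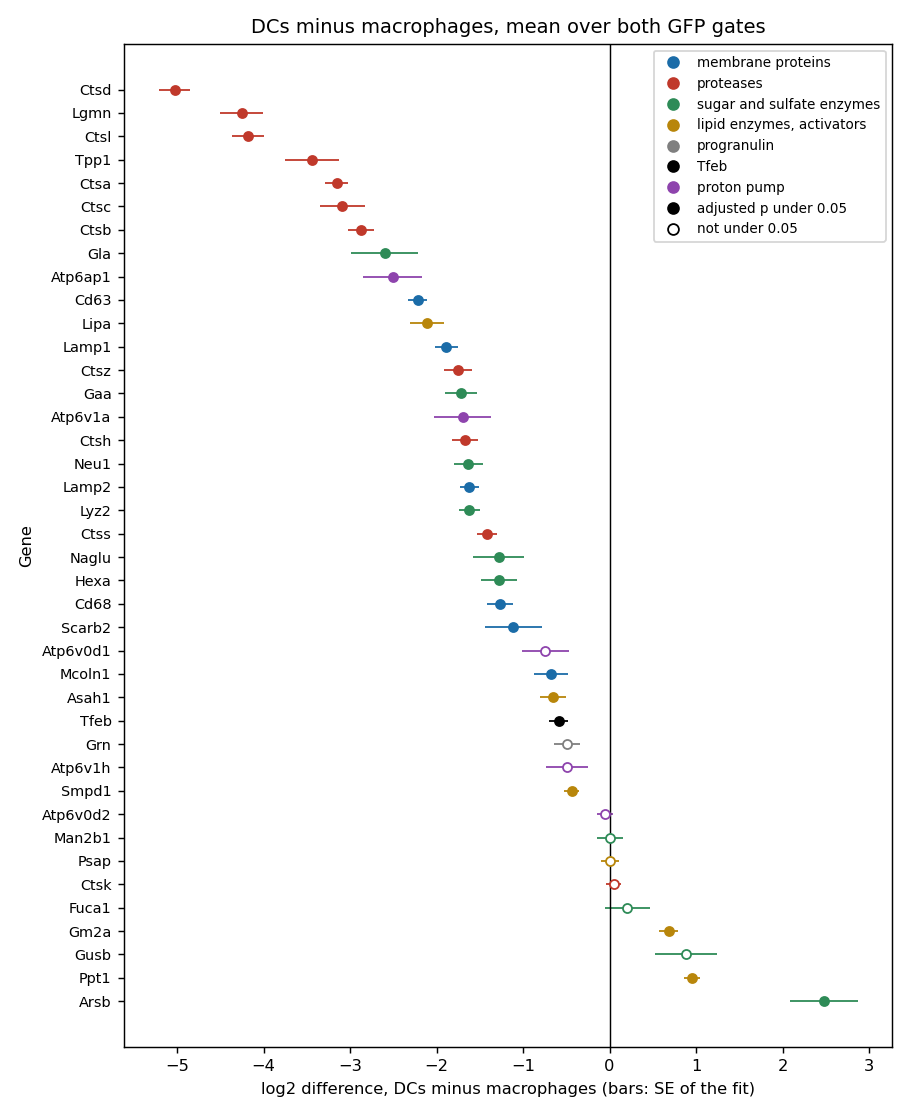
Log2 difference, DCs minus macrophages, of the 40 measured genes (points, coloured by role; filled where the limma adjusted p is under 0.05) with the SE of the fit as bars. The proteases take the leftmost places down to Ctsd at -5.03, and Gm2a, Ppt1 and Arsb are the 3 filled points to the right of 0.

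Within the GFP-minus groups alone 20 members passed (18 lower in DCs, 2 higher), against 4.71% of all genes. Within the GFP-plus groups alone 31 passed (29 lower, 2 higher), against 11.2%. These 2 comparisons were added after the data were seen. Ctsd differed by -4.84 ± 0.25 in the GFP-minus gate and by -5.22 ± 0.25 in the GFP-plus gate. For Cd63 the 2 values were -3.23 ± 0.16 and -1.21 ± 0.16, and for Lipa -1.11 ± 0.28 and -3.11 ± 0.28, and the direct test of that change between gates is given further on. Ppt1 was higher in DCs in both gates (1.23 ± 0.13 and 0.68 ± 0.13). Arsb passed only the GFP-minus test (3.19 ± 0.55, against 1.76 ± 0.55 with an adjusted p of 0.0558) and Gm2a only the GFP-plus test (0.78 ± 0.16, against 0.59 ± 0.16 with an adjusted p of 0.0539), and the direct test of a change between gates passed for neither.

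Among the 11 measured members with CACGTG in the window, 10 were lower in DCs and none higher, with a median difference of -1.89. Among the 24 measured members whose window lacks it, 15 were lower and 3 higher, with a median of -1.19. This split was made after the values were seen and has no test. Between DCs and macrophages 10.0% of all genes passed, and that share was not divided by motif. The part of the motif in these differences was not tested.

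The comparison of GFP-plus with GFP-minus DCs asked what goes with carrying epithelial material. In DCs 4 of 40 members passed (10.0%), against 1.58% of all genes: Cd63 and Lamp1 rose and Lipa and Lyz2 fell. After quantile normalization both rises passed and neither fall did. Before adjustment 13 members had a p under 0.05. The arrays of the 2 gates did not overlap in 10 members (25.0%, against 20.1% of all genes), 4 higher and 6 lower in GFP-plus cells.

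Cd63 was -3.52, -2.67 and -3.40 on the 3 GFP-minus arrays and -0.67, -0.78 and -0.59 on the 3 GFP-plus arrays of the DCs. The gates were well separated, with the GFP-plus arrays close together and below every macrophage array. Cd63 rose 5.74-fold, from a mean of -3.20 ± 0.46 to -0.68 ± 0.10 (SD, n = 3; log2 difference 2.52 ± 0.18 SE, limma adjusted p = 1.02e-05), and this call was kept in all 13 alternative settings.

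Lamp1 was -2.17, -2.05 and -2.75 on the GFP-minus arrays and -0.57, -1.37 and -1.50 on the GFP-plus arrays. Every GFP-plus array was higher, with replicate 1 highest. The rise was 2.26-fold (1.18 ± 0.22, limma adjusted p = 0.0204), and it missed the threshold without GFP-minus replicate 3 and in a fit of the DC arrays alone. Its sister protein Lamp2 went from -0.88, -0.94 and -1.37 to -2.18, -1.82 and -1.42, all lower in GFP-plus cells, but did not pass (-0.75 ± 0.18, limma adjusted p = 0.0606).

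Lipa was -0.79, -1.17 and -1.21 on the GFP-minus arrays and -2.44, -2.16 and -3.48 on the GFP-plus arrays of the DCs. All GFP-plus arrays were lower, replicate 3 most. The fall was 3.10-fold (log2 difference -1.63 ± 0.32, limma adjusted p = 0.0232). The call was lost in 6 of 13 alternatives: when any 1 of the GFP-minus arrays or the third GFP-plus array was left out, in a fit of the DC arrays alone, and after quantile normalization, where the difference was -0.48. Without 1 array it ran from -1.90 to -1.24. Lyz2 was -1.42, -0.98 and -0.94 and then -2.48, -1.48 and -2.12, again with no overlap. It fell 1.89-fold (-0.92 ± 0.20, limma adjusted p = 0.0378), a call lost in 8 of 13 alternatives, among them quantile normalization, where the difference was -0.01. Probes for Lyz2 may also bind its near-identical copy Lyz1, for which the difference was 1.12 ± 0.50 (limma adjusted p = 0.306), so both values are uncertain.

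**Figure D3:**
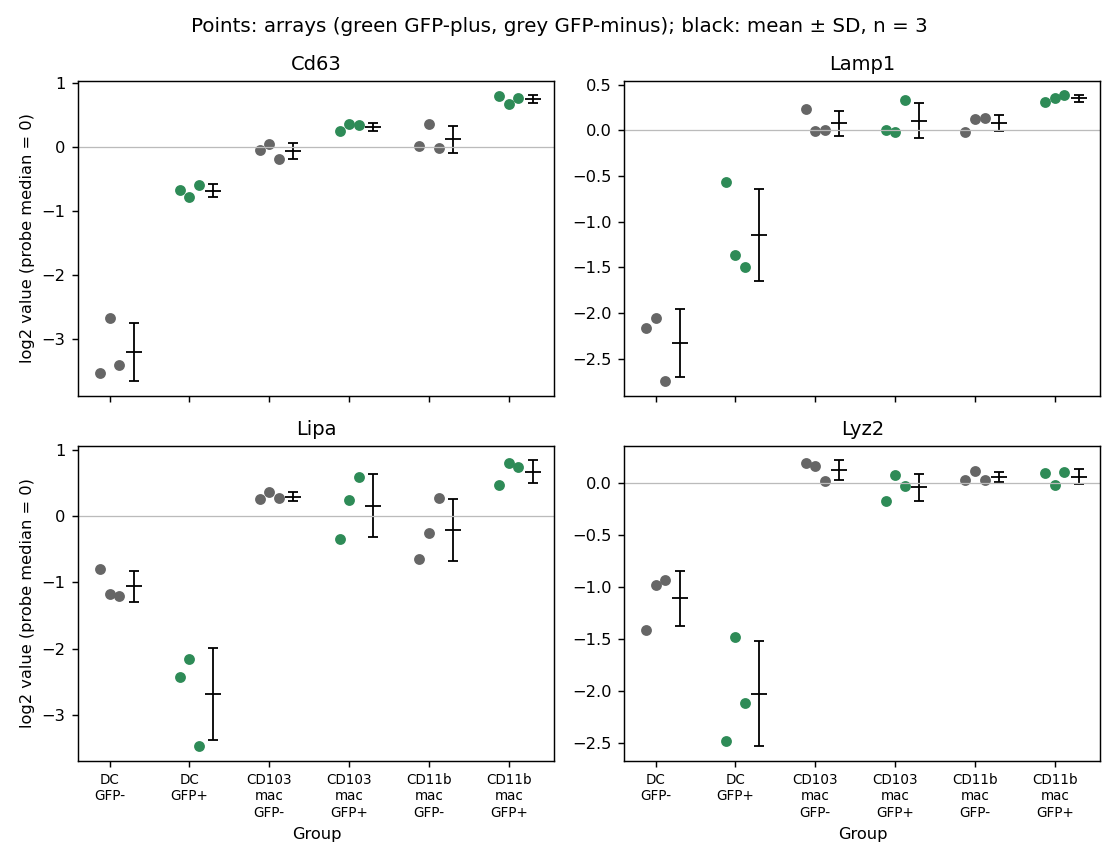
Log2 values of the 4 genes that passed between GFP-plus (green) and GFP-minus (grey) DCs, 1 point per array in each of the 6 groups, with the mean ± SD of 3 arrays in black. In the DC groups at the left Cd63 and Lamp1 are higher and Lipa and Lyz2 lower in GFP-plus cells, and in Cd63 the GFP-plus arrays are higher in all 3 populations.

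Of the members that did not pass in DCs, Ctsa had a difference of -0.93 ± 0.22 (limma adjusted p = 0.0566), Ctsz 0.68 ± 0.27 (0.232), Tfeb -0.28 ± 0.19 (0.506), Atp6v0d1 0.81 ± 0.45 (0.413) and Atp6v0d2 0.24 ± 0.15 (0.491). In all, 31 of 40 members were below 0, with a median of -0.33 against -0.02 over all genes. That direction turned after quantile normalization, where 24 members were above 0 and the median was 0.13. With genes of low spread left out, the median was -0.35 over the members kept and -0.29 over all genes kept. The shift was thus close to that of variable genes in general. The spread of values over genes (interquartile range) was 0.431 to 0.669 on the GFP-plus DC arrays and 0.301 to 0.406 on the GFP-minus ones. Other cell types' markers moved with this comparison. The mean of the 12 macrophage markers ran from -4.70 to -3.90 on the GFP-minus DC arrays and from -5.08 to -4.84 on the GFP-plus ones, 11 of 12 were below 0, and C1qa, a complement subunit, fell by 1.53 (limma adjusted p = 0.0452). The mean of 12 enterocyte markers ran from -0.21 to -0.04 and from 0.31 to 0.76, with 11 of 12 above 0 and none passing. The mean of 10 Paneth and goblet cell markers ran from -0.36 to -0.28 and from 0.14 to 0.32. Of these 10 markers 6 were above 0, with a median of 0.11. The Paneth cell defensin Defa24 rose by 4.34 (limma adjusted p = 0.00116). The list means of lymphocyte and monocyte markers were lower with GFP, again without overlap. The mean of 11 T and innate lymphocyte markers ran from 0.05 to 0.75 on the GFP-minus arrays and from -0.52 to -0.30 on the GFP-plus ones, and Gzma fell by 3.88 (limma adjusted p = 0.000978). The mean of 7 B and plasma cell markers ran from 0.22 to 0.67 and from -0.58 to -0.31, and Ighm fell by 2.00 (limma adjusted p = 0.0387). The mean of 8 monocyte markers ran from -0.13 to 0.33 and from -0.49 to -0.34. Of these 8 markers, 4 were above 0 and 4 below, with a median of -0.03 and none passing. The part of all these lists in the lysosomal differences was not tested.

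In the CD11b macrophages no member passed between the gates (limma, smallest adjusted p = 0.529, 7 members with an unadjusted p under 0.05), where 0.0271% of all genes passed. Yet 39 of 40 members were above 0 (97.5%, against 51.9% of all genes), with a median log2 difference of 0.36 against 0.01. The mean over the 40 members was 0.32 to 0.41 on the 3 GFP-plus arrays and -0.14 to 0.10 on the 3 GFP-minus arrays. Every GFP-plus array was thus above every GFP-minus array, by less than 1 on the log2 scale. The arrays of the 2 gates did not overlap in 21 members (52.5%, all higher in GFP-plus cells), against 15.9% of all genes. Between 36 and 39 members were above 0 when 1 array was left out, and 37 after quantile normalization. With genes of low spread left out, the median was 0.40 over the members kept and 0.20 over all genes kept. Variable genes in general thus also had a median above 0, lower than that of the members.

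The members with the smallest p there were Cd63, Neu1 and Ppt1. Cd63 was 0.01, 0.36 and -0.01 on the GFP-minus and 0.80, 0.68 and 0.76 on the GFP-plus CD11b macrophage arrays (0.62 ± 0.18, limma adjusted p = 0.529). Neu1 was -0.34, -0.62 and 0.52 and then 1.01, 0.73 and 0.57 (0.91 ± 0.27, limma adjusted p = 0.53). Ppt1 was -0.30, -0.51 and -0.57 and then 0.00, 0.00 and 0.02 (0.47 ± 0.15, limma adjusted p = 0.574). In each of these 3 genes the GFP-plus arrays lay above the GFP-minus ones. Lipa, which fell in GFP-plus DCs, was -0.65, -0.25 and 0.28 and then 0.48, 0.80 and 0.75 here (0.88 ± 0.32, limma adjusted p = 0.687). Lamp1 differed by 0.27 ± 0.22, Tfeb by 0.10 ± 0.19, Atp6v0d1 by 0.14 ± 0.45, Lyz2 by 0.00 ± 0.20 and Atp6v0d2, the member below 0, by -0.06 ± 0.15. The mean of 8 monocyte markers ran from 0.42 to 0.96 on the GFP-minus arrays and from -0.63 to -0.26 on the GFP-plus ones, with 6 of 8 below 0, and Plac8 fell by 3.62 (limma adjusted p = 0.018). The mean of the 12 macrophage markers ran from -0.09 to 0.13 and from 0.40 to 0.44, with 9 of 12 above 0, and that of the 12 enterocyte markers from -0.36 to -0.17 and from 0.13 to 0.38, with 7 of 12 above 0. In these 3 lists the gates did not overlap, and no macrophage or enterocyte marker passed. Their part in the lysosomal differences was not tested.

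In the CD103 macrophages no member passed either (limma, smallest adjusted p = 0.25, 2 members with an unadjusted p under 0.05), where 0.0541% of all genes passed. Here 23 members were above 0 and 17 below, with a median of 0.05, and 17 to 26 were above 0 when 1 array was left out. The arrays of the 2 gates did not overlap in 7 members (17.5%, 6 higher and 1 lower), against 13.0% of all genes. The lower one was Tfeb, at 0.35, 0.22 and 0.24 on the GFP-minus arrays and -0.78, -0.05 and -0.22 on the GFP-plus arrays (-0.62 ± 0.19, limma adjusted p = 0.25). Mcoln1, a target of Tfeb, was 0.01, -0.76 and 0.01 and then 0.00, 1.10 and 0.83 (0.89 ± 0.32, limma adjusted p = 0.367). Their gates thus differed in opposite directions, without passing, and only those of Tfeb were free of overlap. Smpd1 differed by 0.31 ± 0.15, Cd63 by 0.38 ± 0.18, Naglu by -0.61 ± 0.49, Gm2a by -0.24 ± 0.19, Lamp1 by 0.03 ± 0.22, Lipa by -0.14 ± 0.32, Lyz2 by -0.17 ± 0.20, Atp6v0d1 by -0.50 ± 0.45 and Atp6v0d2 by -0.17 ± 0.15. The mean of 11 T and innate lymphocyte markers ran from 1.38 to 2.84 on the GFP-minus arrays and from -0.06 to 0.58 on the GFP-plus ones, and Cd7 fell by 3.61 (limma adjusted p = 0.0354). The mean of the monocyte markers ran from 0.53 to 0.96 and from -0.57 to -0.20. Their part in these values was not tested.

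Averaged over both macrophage populations, no member passed (limma, smallest adjusted p = 0.115, 7 with an unadjusted p under 0.05), against 0.415% of all genes. The 3 smallest p-values were those of Cd63 (0.50 ± 0.13, limma adjusted p = 0.115), Mcoln1 (0.84 ± 0.22, 0.126) and Neu1 (0.72 ± 0.19, 0.131). With array weights Mcoln1 and Neu1 passed, after quantile normalization Cd63, and without GFP-minus replicate 3 of the CD11b macrophages Neu1. Lipa was at 0.37 ± 0.23, Lamp1 at 0.15 ± 0.16, Lyz2 at -0.08 ± 0.14, Tfeb at -0.26 ± 0.13, Atp6v0d1 at -0.18 ± 0.32 and Atp6v0d2 at -0.11 ± 0.11.

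**Figure D4:**
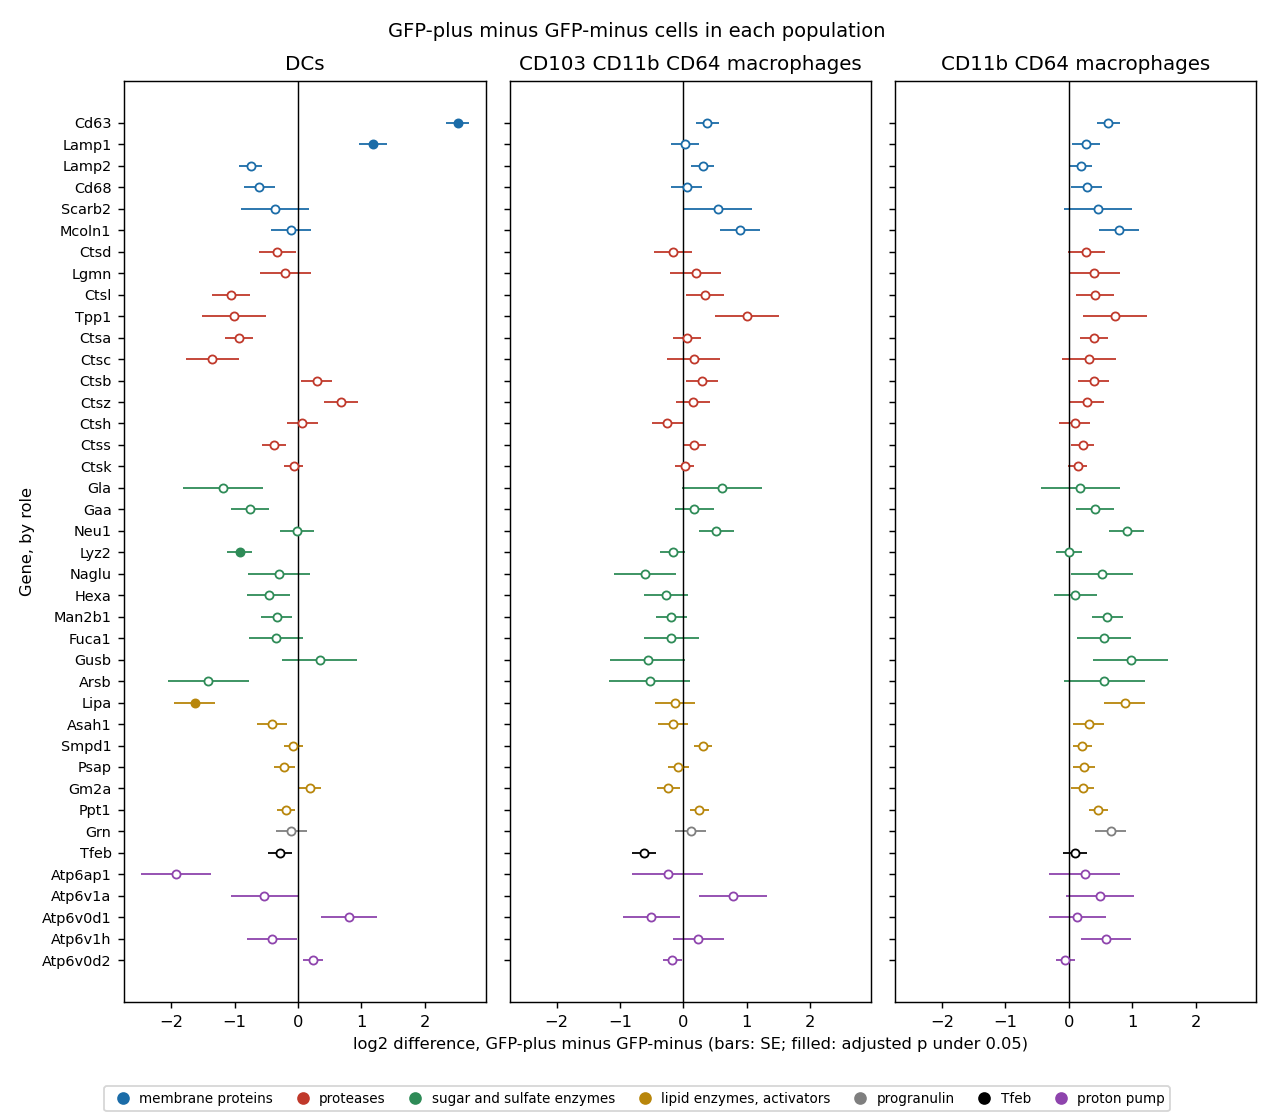
Log2 difference, GFP-plus minus GFP-minus, of the 40 measured genes in DCs, CD103 macrophages and CD11b macrophages (points, coloured by role, with SE bars; filled where the limma adjusted p is under 0.05). In DCs the 4 filled points are Cd63, Lamp1, Lyz2 and Lipa, and in CD11b macrophages 39 of 40 open points lie to the right of 0.

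Whether the GFP difference in DCs was unlike that in macrophages was tested directly, as the DC difference minus the mean of the 2 macrophage differences. It passed in 3 of 40 members (7.5%), against 1.33% of all genes. Cd63 had the larger rise in DCs, by 2.02 ± 0.22 (limma adjusted p = 0.000681). Lipa, lower in GFP-plus DCs, stood apart by -2.00 ± 0.39 (limma adjusted p = 0.0259). Lamp2 stood apart by -0.99 ± 0.22 (limma adjusted p = 0.0458): its CD103 macrophage arrays were -0.07, -0.07 and 0.32 without and 0.40, 0.30 and 0.41 with GFP, and its CD11b macrophage arrays -0.06, 0.20 and 0.06 without and 0.26, 0.23 and 0.28 with GFP. The Lamp2 call was lost in 16 of 24 alternatives and the Lipa call in 4, while that of Cd63 was kept in all 24. After quantile normalization Cd63 alone passed. The count of members was 1 without GFP-minus DC replicate 2 or GFP-plus CD11b macrophage replicate 3, and 6 without GFP-plus DC replicate 2. Lamp1 (1.03 ± 0.27, limma adjusted p = 0.0782) and Lyz2 (-0.84 ± 0.24, 0.102) did not pass, so their calls in DCs are not shown to be particular to DCs. Nor did Ctsa (-1.15 ± 0.27, 0.0545), Tfeb (-0.02 ± 0.23), Atp6v0d1 (0.99 ± 0.55) and Atp6v0d2 (0.35 ± 0.19). This test and that in DCs share the 6 DC arrays.

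Between the 2 macrophage populations, averaged over both gates, no lysosomal gene passed (limma, smallest adjusted p = 0.686, 6 with an unadjusted p under 0.05), against 0.0721% of all genes. Of the members 30 were lower in the CD103 macrophages and 10 higher (25%, against 46.9% of all genes), with a median of -0.12 against -0.01. Ctsz was at -0.55 ± 0.19, Gm2a at -0.32 ± 0.13, Cd63 at -0.31 ± 0.13, Ctsd at 0.32 ± 0.21, Naglu at 0.39 ± 0.35 and Atp6v0d2 at 0.21 ± 0.11. Lamp1 (-0.12 ± 0.16), Lipa (0.00 when rounded), Lyz2 (-0.02 ± 0.14), Tfeb (-0.17 ± 0.13) and Atp6v0d1 (-0.47 ± 0.32) were no further apart than that. Of 11 T and innate lymphocyte markers 10 were above 0 in this comparison, with a median of 1.42. Gzma was higher in the CD103 macrophages by 3.665 (limma adjusted p = 0.000287). The part of these markers in the lysosomal values was not tested.

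Other genes of the lysosome, in 6 lists also chosen with earlier results of these data known, were counted in the same fit. Between DCs and macrophages 44 of 102 passed (43.1%), against 10.0% of all genes. Of 18 further hydrolases and inhibitors 9 were lower in DCs than in macrophages and 2 higher. The lower ones were led by the acid phosphatases Acp5 (-5.32 ± 0.18) and Acp2 (-4.63 ± 0.21) and the phospholipase Pla2g15 (-3.69 ± 0.27). The higher ones were Naaa, an acid amidase (3.58 ± 0.28), and Cst3, the cysteine protease inhibitor cystatin C (1.10 ± 0.09). Of 12 further pump subunits 6 were lower, among them Atp6v1c1 (-2.11 ± 0.35) and Atp6v1e1 (-1.71 ± 0.14), and none higher. Of 20 transcription factors and nutrient sensors at the lysosome 7 were lower and 1 higher. Tfec and Mitf, relatives of Tfeb, were lower by log2 differences of -3.48 ± 0.30 and -2.05 ± 0.35, as was Flcn (-2.05 ± 0.26), while the kinase Mtor was higher (1.71 ± 0.20). Of 23 transporters and channels 13 were lower, led by the metal transporter Slc11a1 (-3.05 ± 0.31) and the cystine exporter Ctns (-2.35 ± 0.28), and 1 was higher, Laptm4b (2.40 ± 0.19). Of 13 sorting genes 3 were lower, led by Cln8 (-2.92 ± 0.15), and of 16 tethering and fusion genes 2 (12.5%, near the share of all genes), Vamp8 (-0.73 ± 0.14) and Vps18 (-1.01 ± 0.26). None of the sorting or tethering genes was higher.

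Between the gates of the DCs 6 of the 102 genes passed (5.88%), against 1.58% of all genes. Acp5 (-1.50 ± 0.29), Ids (-2.11 ± 0.49), Atp6v1e1 (-1.53 ± 0.22) and Cln8 (-1.11 ± 0.24) fell with GFP, and Mtor (1.47 ± 0.33) and Laptm4b (1.74 ± 0.32) rose, with limma adjusted p between 0.00407 (Atp6v1e1) and 0.0476 (Ids). No gene of the 6 lists passed in either macrophage population taken alone. In the CD11b macrophages 15 of 18 hydrolases and inhibitors, 10 of 12 pump subunits, 18 of 20 transcription factors and sensors, 12 of 13 sorting genes, 22 of 23 transporters and channels, and 13 of 16 tethering genes were above 0 in GFP-plus cells. Their list medians ran from 0.36 to 0.53. Over all genes 51.9% were above 0, with a median of 0.01, or 0.20 with genes of low spread left out.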

How the data were processed

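Expression was measured on 18 single-channel, biotin-labelled arrays in 6 groups of 3. Per the labels' protocols, sorted cells went into TRIzol, RNA was cleaned on columns with DNase, and 1 ng was amplified with a NuGEN kit. An "n value" of 4 stands in the labels without explanation. The deposited table holds log2 values of 33793 probes, centred per probe (every probe median lay within 1e-05 of 0). The base was inferred from a widest probe range of 10.15. For the authors' software, summarisation and normalization, no statement was found in the labels, so they are not given here. Column medians ran from -0.0377 to 0.0494, and the number of arrays limits the precision.

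Probes were named through the platform annotation: 23521 had 1 gene symbol and were averaged per gene, 1814 had several and 8458 had none, and the last 2 kinds were left out. A mean per group was fitted to 22180 genes in limma 3.58.1 (R 4.3.3), with 12 residual and 2.089 prior degrees of freedom. P-values are two-sided and adjusted by Benjamini-Hochberg over all genes, with a threshold of 0.05. The fit was tested on simulated data. Contrasts between groups and an F-test over groups were made. Named genes are members that passed, the 3 of smallest p in a direction where fewer than 3 passed, and a fixed set (Cd63, Lamp1, Lipa, Lyz2, Tfeb, Atp6v0d1, Atp6v0d2). The members and gene lists were chosen with earlier results of these data known. Alternatives were quantile normalization, array weights, leaving out arrays, a filter on low spread, the widest probe per gene, only the arrays compared and a replicate block.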

Additional observations from a re-analysis of the deposited data

Results flagged for a closer look

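The GFP difference was unlike in DCs and in macrophages for 3 members, by a direct test of the difference (limma, adjusted over 22180 genes). The value for Cd63 was 2.02 (adjusted p = 0.000681), for Lipa -2.00 (adjusted p = 0.0259) and for Lamp2 -0.99 (adjusted p = 0.0458). In Cd63 both kinds of cell were higher with GFP and the DCs more so, while Lipa and Lamp2 were lower with GFP in DCs and had mean differences above 0 in macrophages. Only the Cd63 call was kept in all 24 alternatives. That of Lipa was lost in 4 and that of Lamp2 in 16. Lamp2 had not passed between the gates of the DCs (limma adjusted p = 0.0606).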

How the results depend on the processing

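Limits are the 3 arrays per group, an unstated normalization and values without an absolute scale. Over all alternatives, 1688 of 1822 values of named members (a gene in a comparison under a setting) kept their direction and their side of the threshold, 76 fell short of it, 16 came past it, and none that had passed reversed. In the other 42 values a gene that had not passed turned sign. Counts of members that passed, not part of that tally, moved as follows. After quantile normalization the GFP comparison gave 2 in DCs and 1 in both macrophages together, and the test of DCs against macrophages gave 1. A fit of only the DC arrays gave 1. Array weights gave 2 in both macrophages together and 6 in the test of DCs against macrophages. The comparison of DCs with macrophages gave 20 in the GFP-minus groups only. Leaving out 1 array gave 1 to 5 in DCs (2 without GFP-minus replicate 2 and 1 without GFP-minus replicate 3), 0 to 1 in both macrophages together, 1 to 6 in the test of DCs against macrophages, 29 to 33 between DCs and macrophages and 25 to 28 in the F-test. The cause was not tested. Counts over all genes moved more: 351 genes passed between the gates of DCs, 37 after quantile normalization, 85 in a fit of the DC arrays alone and 118 to 711 without 1 array. For the CD103 macrophages 12 became 89 after quantile normalization, 95 with array weights, 30 without the 4 lowest-weight arrays, 0 with only the arrays compared and 11 to 60 without 1 array. For the CD11b macrophages 6 became 31, 53 with array weights and 0 to 34. For both together 92 became 334, 654 with array weights, 9 with only the arrays compared, 151 with the replicate block and 18 to 435. The test of DCs against macrophages went from 295 to 45, 681 with array weights, 473 with the block, 456 with the filter on low spread and 122 to 728. Between macrophage populations 16 became 43, 29 with array weights, 3 with only the arrays compared, 25 with the filter and 11 to 42, and the F-test went from 1757 to 2768 with array weights. Same-numbered arrays deviated together by more than r = 0.1 in 13 of 45 pairs (-0.17 to 0.34). The median r was 0.06 for the same number and -0.02 for other numbers, and 11 of 18 arrays correlated best with their own number. Whether the numbers pair samples was thus not settled, and the main fit did not use them. The replicate block gave 4, 0, 0, 0, 3, 31, 0 and 27 members, the same counts as without it, and Mcoln1 lost its call between DCs and macrophages.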

Other observations

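The probe shared by Glb1 and Tmppe could be read for neither gene alone. Its values were -1.18, -0.48 and 0.06 in GFP-minus DCs and -1.63, -1.56 and -1.46 in GFP-plus DCs, with no overlap. In CD103 macrophages they ran from -1.04 to 1.47 without and from -0.06 to 0.83 with GFP. In CD11b macrophages they ran from -0.49 to 1.40 and from 0.65 to 1.24.

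Arsb was measured by 2 probes that differ: in GFP-plus DC replicate 1 they read 0.38 and -1.07, and in GFP-minus CD103 macrophage replicate 1 -0.75 and 1.60.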
